A study of Mus musculus with 6 samples.

Results

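The 15 Affymetrix probe sets described here measure 10 genes of glucose uptake and glycolysis in bone-marrow neutrophils of the mouse. They were picked by probe set number from the 45101 probe sets on the arrays, by a rule that uses no measured value. The genes were the glucose transporters Slc2a1 and Slc2a3, the enzymes Hk2, Gpi1, Aldoa, Tpi1, Pgk1, Pgam1 and Eno1, and lactate dehydrogenase Ldha. Slc2a1, Slc2a3, Gpi1, Aldoa and Eno1 have 2 probe sets each and the other genes 1. The files pair no probe set with a gene, so each gene name rests on the list of numbers and was not checked against an annotation of the array.

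Neutrophils of miR-223 null mice (3 arrays) were compared with those of wild-type mice (3 arrays). Both groups were cells taken straight from the marrow with a Gr-1 antibody and magnetic columns. Gr-1 binds Ly6G on neutrophils and also Ly6C on monocytes, so the isolate can hold other myeloid cells. The sources used here do not give the strain, age, sex or null allele, or whether each array stands for a separate animal. If the arrays of a group share an animal, the p-values measure only the spread between these arrays, part of which may be technical.

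Glucose enters the cell through carriers of the Slc2a family and is split by the glycolytic enzymes into pyruvate, which lactate dehydrogenase turns into lactate. Neutrophils have few mitochondria and are known to draw most of their ATP from this pathway. miR-223 is a myeloid microRNA that binds transcripts mainly through its seed, the bases that pair with a target, and lowers their stability and translation. Its 3p strand is shown because it is the RNA that the null cells lack. The RefSeq sequence (GRCm38.p6, chrX:96242884-96242905, plus strand) has the seed, bases 2 to 8, in capitals.

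mmu-miR-223-3p: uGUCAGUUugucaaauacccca

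The deposited log2 values had medians of 4.81 to 4.84 on the 6 arrays, and the largest value was 14.98. All 15 probe sets lay above the filter on dim probe sets (a mean of 4.83), and 14 lay among the brightest 5630 of the 22519 probe sets tested (means of 8.97 or more). No detection call was used. The arrays fell into 2 sets by the mean of 18 hybridization control probe sets, with a gap of 0.131 between the sets and at most 0.0501 between other neighbours. The brighter set held null replicates 1 and 2 and wild-type replicate 1, and the dimmer set held null replicate 3 and wild-type replicates 2 and 3. The labels name no batch. The markers of neutrophils, monocytes, lymphocytes and red cell precursors were not matched to probe sets here, so the labelled cell type was not checked. In bulk RNA, fewer cells of a type and less RNA per cell cannot be told apart.

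In the fit without a block, no glycolytic or transporter probe set differed past the threshold between null and wild-type neutrophils. With limma and a Benjamini-Hochberg adjusted p of 0.05 over all tested probe sets, 0 of the 15 passed, against a background of 3.84% of all 22519. Among the brightest 5630, which hold 14 of the 15, 5.93% passed. With the array set as a block in the fit, 1 of the 15 passed, an Aldoa probe set (limma adjusted p = 0.049). In that fit 2466 of all 22519 passed, and 5.38% of all were called lower in null cells. The differences were small. Aldolase A and enolase 1 lay lower on every null array than on any wild-type array for both of their probe sets, by 9.22% to 16.2% of the wild-type level. For Hk2, Pgk1, Ldha and both Slc2a3 probe sets the null means were also lower, with overlapping groups. For glucose-6-phosphate isomerase the means were nearly equal. The null means of both Slc2a1 probe sets, Tpi1 and Pgam1 were higher, within the spread between arrays.

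At an unadjusted p under 0.05 (limma), 4 of the 15 differed, all lower in null cells, where 8.76% of all tested probe sets were lower and 9.96% were higher at that level. The same 4, from Aldoa and Eno1, were those whose null values all lay below the wild-type values. Of all 22519 probe sets, 11.8% parted in this direction and 12.8% in the opposite one, in which none of the 15 lay. The null mean was lower for 11 of the 15 probe sets, or 7 of the 10 genes with both probe sets of a gene always of the same sign, and for 51.8% of all tested. The median log2 difference, null minus wild type, was −0.10 over the 15 and −0.0080 over all tested. In size the differences were ordinary. Their median without sign was 0.15, against 0.14 over all tested and 0.13 over the brightest 5630. The median standard error was 0.075 over the 15, 0.13 over all tested and 0.092 over the brightest 5630. A difference of a given size thus reaches a low p more readily among the 15 than among all tested.

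**Figure D1:**
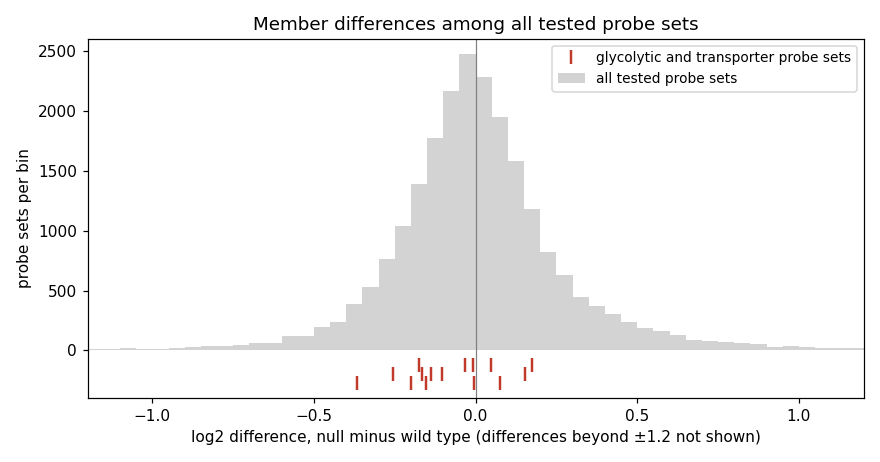
Histogram of the log2 difference, null minus wild type, for all 22519 tested probe sets in bins of 0.05 (grey bars, vertical axis in probe sets per bin; differences beyond ±1.2 are not drawn). The red ticks under the axis mark the 15 glycolytic and transporter probe sets, staggered only for legibility: 11 lie left of 0, and all lie within the bulk of the distribution, between −0.37 and 0.17.

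Slc2a1 encodes GLUT1, the carrier for basal glucose uptake in many cells. Its probe set 1426599_A_AT read 9.09, 9.27 and 8.83 on null replicates 1 to 3 and 8.72, 9.09 and 8.86 on wild-type replicates 1 to 3 (log2 levels). The groups overlapped, and wild-type replicate 1 was the lowest array. The difference was 0.17 with a standard error of 0.14 (limma adjusted p = 0.60), so null cells were at 113% of wild type with a 95% interval of 89.7% to 142%. The second probe set, 1426600_AT, read 8.03, 8.17 and 7.84 in null cells and 7.59, 8.09 and 7.90 in wild-type cells. It gave the same order of arrays within the null group and the same lowest array, with a difference of 0.15 and a standard error of 0.15 (limma adjusted p = 0.68). The positive sign rested on the brighter set of arrays, where the differences of the 2 probe sets were 0.46 and 0.51, while in the dimmer set they were −0.14 and −0.16. Whether the sets differ in this effect was not tested. With wild-type replicate 1 left out, the 2 differences were 0.090 and 0.020.

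Slc2a3 encodes GLUT3, a carrier with high affinity for glucose that is abundant in neurons and leukocytes. Its 2 probe sets behaved differently across the arrays. Probe set 1421924_AT read 8.83, 8.82 and 9.98 on null replicates 1 to 3 and 8.65, 10.21 and 9.88 on wild-type replicates 1 to 3. The spread followed the set of arrays and not the genotype, with all 3 arrays of the brighter set at 8.83 or less and all 3 of the dimmer set at 9.88 or more. With genotype in the fit, the dimmer set was 2.42-fold higher, a log2 effect of 1.27 with a standard error of 0.11 (limma adjusted p = 0.024). It was the only one of the 15 whose set effect passed the threshold, against 1.94% of all tested probe sets. The other probe set, 1437052_S_AT, read 13.68, 13.73 and 13.59 in null cells and 13.67, 13.71 and 13.72 in wild-type cells, and its set effect was −0.036 with a standard error of 0.050 (limma adjusted p = 0.74).

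Between the genotypes, 1421924_AT differed by −0.37 with a standard error of 0.45 (limma adjusted p = 0.75), an interval of 37.6% to 160% of wild type. With the array set as a block the difference turned to 0.059 with a standard error of 0.11 (limma adjusted p = 0.80). The brighter 1437052_S_AT differed by −0.033 with a standard error of 0.052 (limma adjusted p = 0.82), or 97.8% of wild type with a 95% interval of 89.9% to 106%. Affymetrix gives the suffix _S_AT to probe sets shared by several transcripts. Which of the 2 probe sets follows Slc2a3 more closely was not tested.

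**Figure D2:**
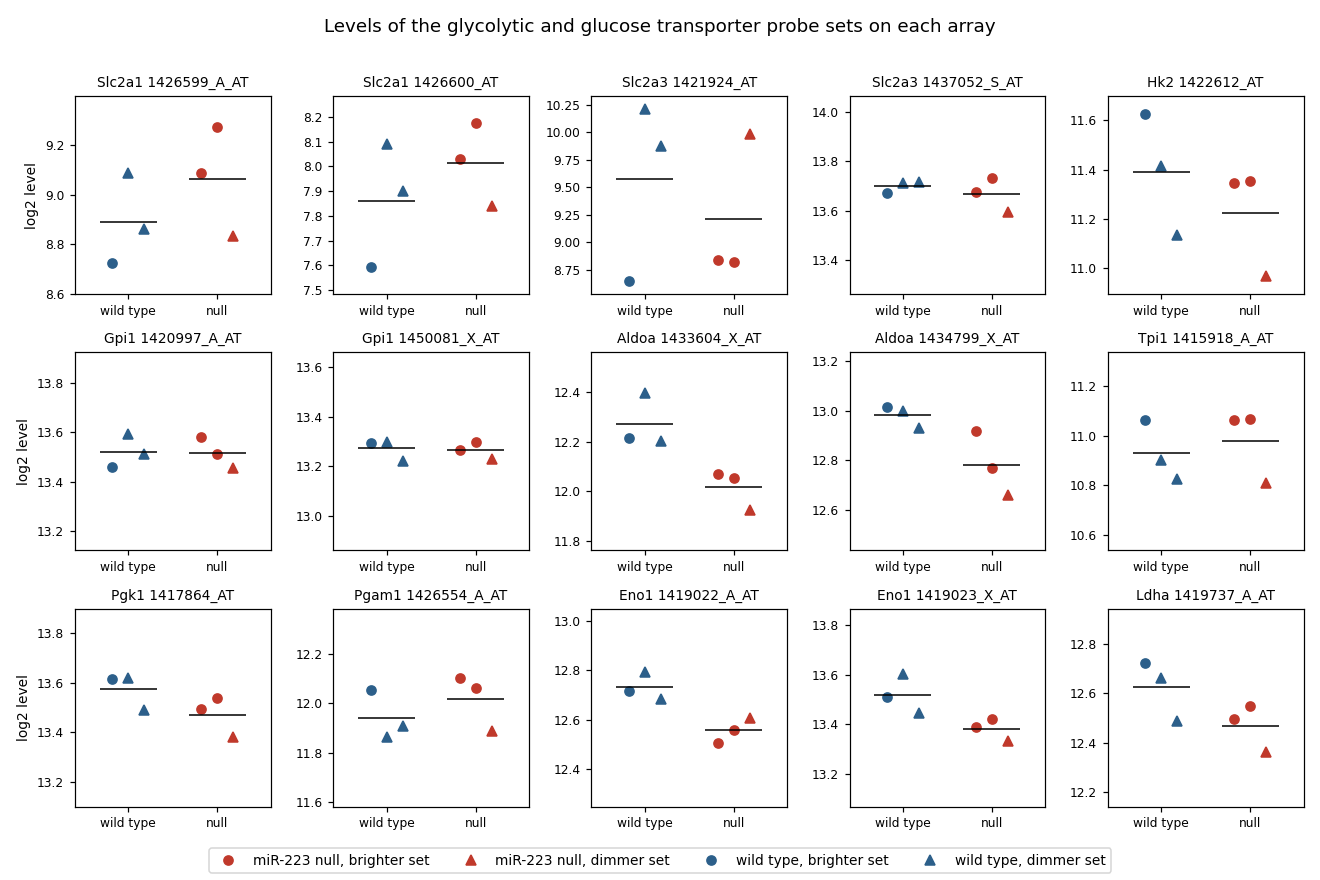
Log2 level of each of the 15 probe sets on the 6 arrays, with wild-type arrays in blue and null arrays in red, circles for the brighter and triangles for the dimmer set, and black lines at the group means; points within a group run from replicate 1 on the left to 3 on the right. Each panel spans 0.8 log2 units, apart from 1421924_AT with 1.8; the red points lie below all blue points only for the 2 Aldoa and 2 Eno1 probe sets, and the circles and triangles part only for 1421924_AT, Tpi1 and Pgam1.

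Hk2 encodes hexokinase 2, an inducible isoform of the enzyme that phosphorylates glucose and so traps it in the cell. Its probe set 1422612_AT read 11.35, 11.35 and 10.97 on null replicates 1 to 3 and 11.62, 11.41 and 11.14 on wild-type replicates 1 to 3. The groups overlapped, because replicate 3 was the lowest array of each genotype. The difference was −0.17 with a standard error of 0.15 (limma adjusted p = 0.63). Within the sets it was −0.27 on the brighter and −0.30 on the dimmer arrays. With the set as a block it was −0.29 with a standard error of 0.081 (limma adjusted p = 0.064), and wild-type cells were 1.22-fold higher.

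Gpi1 encodes glucose-6-phosphate isomerase, which makes fructose 6-phosphate. Its levels lay close together on all arrays. Probe set 1420997_A_AT read 13.58, 13.51 and 13.45 in null and 13.46, 13.59 and 13.51 in wild-type cells, and 1450081_X_AT read 13.27, 13.30 and 13.23 and 13.30, 13.30 and 13.22. The differences were −0.0060 and −0.0083, with standard errors of 0.057 and 0.049 (limma adjusted p = 0.98 and 0.96). The 95% intervals ran from 90.8% to 109% and from 91.8% to 108% of wild type. The suffix _X_AT marks probe sets with probes that may also bind unrelated transcripts.

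Tpi1 encodes triosephosphate isomerase, which interconverts the products of aldolase. Probe set 1415918_A_AT read 11.06, 11.07 and 10.81 in null and 11.07, 10.90 and 10.83 in wild-type cells. The 3 arrays of the brighter set were the 3 highest, at nearly equal values whatever the genotype. The difference was 0.048 with a standard error of 0.099 (limma adjusted p = 0.87), and −0.029 with the set as a block (limma adjusted p = 0.82). Pgam1, phosphoglycerate mutase, followed the sets in the same way. Its probe set 1426554_A_AT read 12.10, 12.06 and 11.89 in null and 12.05, 11.86 and 11.91 in wild-type cells, with a difference of 0.076 and a standard error of 0.081 (limma adjusted p = 0.71). Arrays of the brighter and the dimmer set did not overlap for 1421924_AT, Tpi1 and Pgam1, 3 of the 15, where 17.6% of all tested probe sets were so separated. The set effects of Tpi1 and Pgam1 did not pass the threshold (limma adjusted p = 0.087 and 0.10).

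The remaining enzymes, Aldoa, Pgk1, Eno1 and Ldha, had lower null means in both sets of arrays. The 150 bases before an annotated start of each are shown because these 4 genes, picked after their values were seen, had lower null means and are textbook targets of the hypoxia-inducible factors, which bind a core of ACGTG or GCGTG. Hk2 and Slc2a1 are such targets too and are not shown, Hk2 with a lower and Slc2a1 with a higher null mean. Slc2a3, Gpi1 (nearly equal means), Tpi1 and Pgam1 (higher null means) are not shown either. Whether they are such targets was not checked, and a part of these factors in the levels was not tested. The stretches are from RefSeq (GRCm38.p6), run 5′ to 3′ on the strand of the gene, and end at the base before the start. Where a gene has several annotated starts the one with the most matches in these 150 bases is shown (for Eno1, one of a tie), and for Aldoa, Eno1 and Ldha it lies inside the gene's span, downstream of another start. Capitals mark ACGTG or GCGTG on either strand, which appear as CACGT or CACGC when on the opposite strand. The stretches lie at chr7:126799255-126799404 (Aldoa, minus strand), chrX:106186950-106187099 (Pgk1, plus strand), chr4:150237047-150237196 (Eno1, plus strand) and chr7:46845654-46845803 (Ldha, plus strand).

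Aldoa: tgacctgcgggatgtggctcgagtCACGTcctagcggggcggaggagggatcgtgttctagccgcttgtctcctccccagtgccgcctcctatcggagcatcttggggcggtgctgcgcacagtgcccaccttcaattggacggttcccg
Pgk1: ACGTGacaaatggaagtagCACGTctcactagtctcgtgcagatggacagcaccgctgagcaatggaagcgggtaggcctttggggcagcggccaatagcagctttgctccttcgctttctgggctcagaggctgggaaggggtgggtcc
Eno1: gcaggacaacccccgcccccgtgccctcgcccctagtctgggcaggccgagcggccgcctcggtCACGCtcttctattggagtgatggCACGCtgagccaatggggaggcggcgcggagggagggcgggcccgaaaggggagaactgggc
Ldha: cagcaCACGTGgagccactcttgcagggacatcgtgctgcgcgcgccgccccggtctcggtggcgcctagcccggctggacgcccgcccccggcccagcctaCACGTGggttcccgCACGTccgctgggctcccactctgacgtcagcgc

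Counting from −1 at the base before the start, the matches begin at −126 in Aldoa, at −150 and −131 in Pgk1 and at −86 and −62 in Eno1. In Ldha they begin at −145, −144, −48, −47 and −34, and the palindrome CACGTG, the E-box, accounts for 2 pairs of these since it holds ACGTG on both strands. In windows of 300 bases (250 before and 50 after each annotated start), ACGTG or GCGTG stood in 11 of the 14 windows of the 9 genes with an entry, against 43.8% of all 32851 windows. CACGTG stood in 1 of the 14, against 7.15% of all windows. The windows of a gene partly overlap. Slc2a3 has no entry. Matches were also found in the windows of Slc2a1, Hk2 and Pgam1, and none in those of Gpi1 and Tpi1. A match describes the letters in the window and says nothing on binding in these cells.

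Aldoa encodes aldolase A, which cleaves fructose 1,6-bisphosphate. Probe set 1433604_X_AT read 12.07, 12.05 and 11.93 on null replicates 1 to 3 and 12.21, 12.40 and 12.20 on wild-type replicates 1 to 3. Every null array lay below every wild-type array. The means were 12.02 ± 0.079 and 12.27 ± 0.11 (SD, n = 3 each), a difference of −0.25 with a standard error of 0.075 (limma adjusted p = 0.12). Null cells were thus at 83.8% of the wild-type level, with a 95% interval of 74.2% to 94.6% that is not adjusted for the number of probe sets. Over all tested probe sets, 25.4% differed by more than this one.

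The second Aldoa probe set, 1434799_X_AT, read 12.92, 12.77 and 12.66 in null and 13.01, 13 and 12.93 in wild-type cells, again with no overlap. Its means were 12.78 ± 0.13 and 12.98 ± 0.044 (SD, n = 3 each), a difference of −0.20 with a standard error of 0.073 (limma adjusted p = 0.19). With the set of arrays as a block the difference was −0.24 with a standard error of 0.062, and it passed the threshold (limma adjusted p = 0.049), with wild-type cells 1.18-fold higher. It was the only one of the 15 to do so, where 5.38% of all tested probe sets were called lower in that fit, and it no longer passed in that fit with an array left out. The adjusted p (limma) was then 0.055 without null replicate 1, 0.14 without null replicate 2, 0.33 without null replicate 3, and 0.14, 0.063 and 0.072 without wild-type replicates 1, 2 and 3. The first probe set gave −0.26 in that fit with a standard error of 0.076 (limma adjusted p = 0.069). Both carry the suffix _X_AT, so a contribution of other transcripts to the signal was not tested.

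Pgk1 encodes phosphoglycerate kinase 1, which makes ATP from 1,3-bisphosphoglycerate. Probe set 1417864_AT read 13.49, 13.54 and 13.38 in null and 13.62, 13.62 and 13.49 in wild-type cells. The groups overlapped only in that wild-type replicate 3 lay below null replicates 1 and 2. The difference was −0.10 with a standard error of 0.062 (limma adjusted p = 0.44), or 93.0% of wild type with a 95% interval of 84.1% to 103%. It was −0.10 within the brighter and −0.17 within the dimmer set.

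Eno1 encodes enolase 1, which forms phosphoenolpyruvate. Probe set 1419022_A_AT read 12.50, 12.56 and 12.61 on null replicates 1 to 3 and 12.72, 12.79 and 12.69 on wild-type replicates 1 to 3. The means were 12.56 ± 0.052 and 12.73 ± 0.056 (SD, n = 3 each), a difference of −0.17 with a standard error of 0.057 (limma adjusted p = 0.15). The second probe set, 1419023_X_AT, read 13.39, 13.42 and 13.33 in null and 13.51, 13.60 and 13.45 in wild-type cells. It differed by −0.14 with a standard error of 0.057 (limma adjusted p = 0.24). The null values lay below all wild-type values for both, at 88.6% and 90.8% of the wild-type level, and the 2 probe sets agreed within 1 standard error. The difference was below 0 within each set, at −0.18 and −0.13 for the first probe set and −0.11 and −0.19 for the second (brighter and dimmer).

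Ldha encodes the A subunit of lactate dehydrogenase, which regenerates NAD+ so that glycolysis can run on. Probe set 1419737_A_AT read 12.49, 12.55 and 12.36 in null and 12.72, 12.66 and 12.49 in wild-type cells. As for Hk2 and Pgk1, replicate 3 was the lowest array of each genotype, and each null array lay below the wild-type arrays of its own set. The difference was −0.15 with a standard error of 0.080 (limma adjusted p = 0.36), and −0.20 in the brighter against −0.21 in the dimmer set. With the set as a block it was −0.21 with a standard error of 0.060 (limma adjusted p = 0.073).

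**Figure D3:**
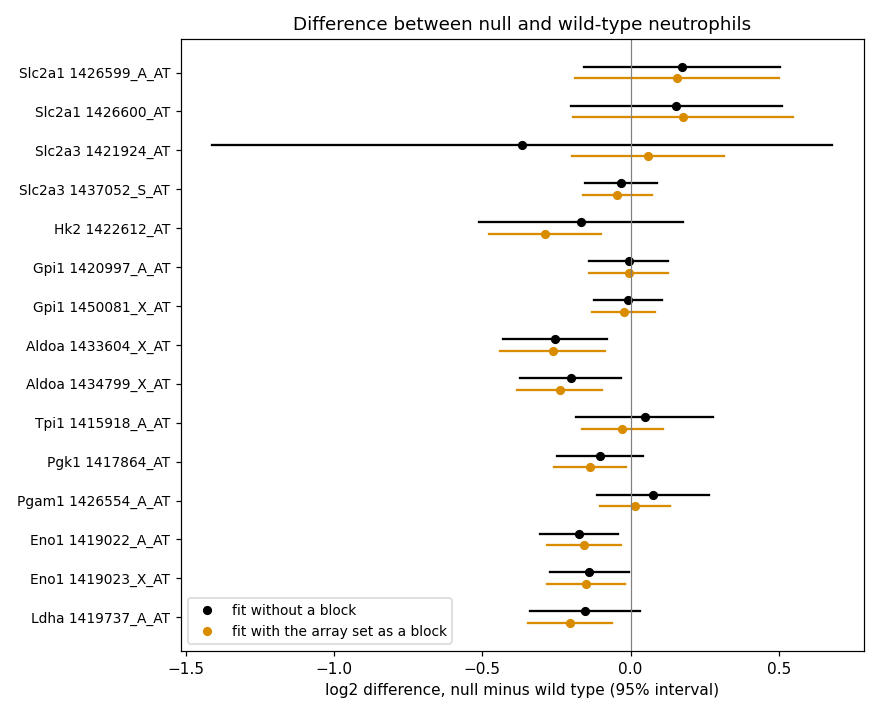
Log2 difference, null minus wild type, with its 95% interval for each of the 15 probe sets, from the fit without a block (black) and with the array set as a block (orange). Without the block only the intervals of the 2 Aldoa and 2 Eno1 probe sets lie wholly below 0; with it those of Hk2, Pgk1 and Ldha do as well, and the interval of Slc2a3 1421924_AT shrinks around 0.059.

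With the array set as a block, 7 of the 15 probe sets (Hk2, both of Aldoa, Pgk1, both of Eno1, and Ldha) were lower at an unadjusted p under 0.05 (limma) and 0 were higher, where 13.6% of all tested probe sets were lower at that level. Of these 7, the 1 for Aldoa passed the adjusted threshold. At the adjusted threshold 1255 of all tested probe sets were higher and 1211 lower in this fit. The share of all tested that was higher at the unadjusted level was not counted. Measured in each set separately, 9 of the 15 were lower in null cells in both sets, 1 (Pgam1) was higher in both and 5 had opposite signs. Over all tested probe sets these shares were 34.2%, 32.5% and 33.3%. Some of these within-set differences were very small (brighter and dimmer set). The 9 include Tpi1, at −0.0012 and −0.056, and Gpi1 1450081_X_AT, at −0.014 and −0.032. Pgam1 was at 0.028 and 0.0027. For Tpi1 the null mean over all arrays was higher. The 5 of opposite sign were the 4 transporter probe sets and 1 of Gpi1. The within-set values rest on 1 wild-type array in the brighter and 1 null array in the dimmer set and carry no test of their own.

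**Figure D4:**
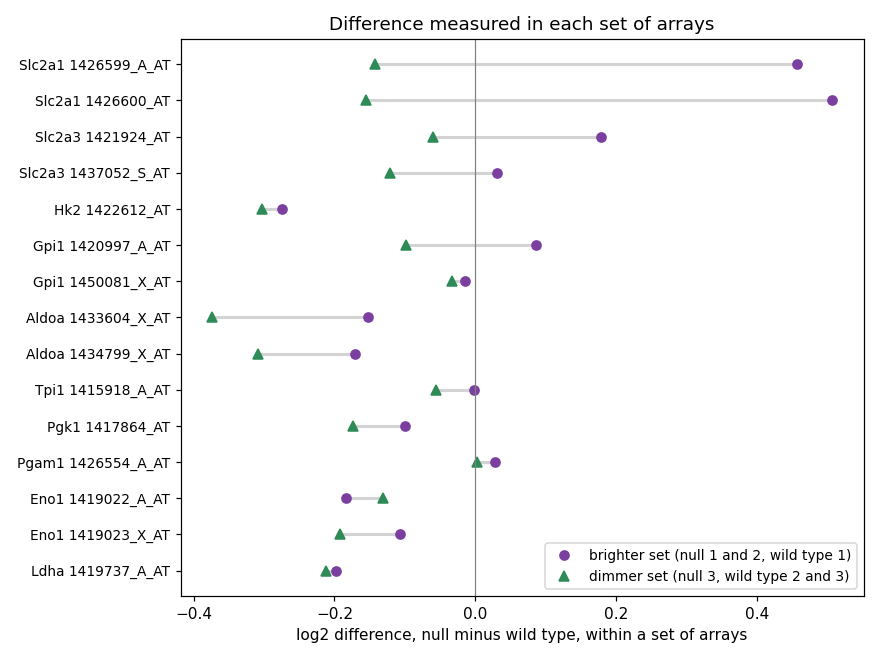
Log2 difference, null minus wild type, of each probe set measured within the brighter set (purple circles, 2 null arrays against 1 wild-type array) and within the dimmer set (green triangles, 1 null array against 2 wild-type arrays); grey bars join the 2 values. Hk2, Aldoa, Pgk1, Eno1 and Ldha lie left of 0 in both sets, and the 2 Slc2a1 probe sets lie farthest apart, at 0.46 against −0.14 and 0.51 against −0.16.

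Of the other enzymes of glucose metabolism, which include phosphofructokinase, pyruvate kinase and the other hexokinases, none was matched to a probe set here except those named by the control probe sets of the array. Gapdh, the glycolytic enzyme between Tpi1 and Pgk1, read 14.00, 13.99 and 13.98 in null and 14.07, 14.12 and 14.08 in wild-type cells for its 3′ probe set, a difference of −0.10 with no overlap (two-sided exact permutation p = 0.1, the smallest that 3 arrays against 3 allow). The middle Gapdh probe set read 13.71, 13.77 and 13.80 against 13.81, 13.92 and 13.83, a difference of −0.096 (exact permutation p = 0.1). The 5′ one read 13.66, 13.76 and 13.94 against 13.82, 14.02 and 13.90, a difference of −0.13 with overlapping groups (exact permutation p = 0.3), which was −0.12 on the brighter and −0.018 on the dimmer arrays. Within the sets the 3′ difference was −0.077 on the brighter and −0.12 on the dimmer arrays. These values lie near the top of the scale. The 3′ Gapdh level was above the 5′ level on every array, by more on each brighter-set array than on any dimmer-set array. The cause of this gap was not tested. Pyruvate carboxylase, which leads pyruvate away from lactate toward oxaloacetate, lay at log2 levels of 4.55 to 6.32 on its 4 control probe sets. Its groups overlapped on each of them, with differences of −0.099 to −0.00080 (exact permutation p = 0.3 to 1). The dimmest of them, with means of 4.64 in null and 4.69 in wild-type cells, lay below the filter of 4.83 used for the tested probe sets.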

How the data were processed

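The values are those the authors deposited, 1 log2 value per probe set and array, and the log2 scale was inferred from their range (2.12 to 14.98). The submitters' processing notes name GCOS, and the sources used here give neither its version nor how background, normalization and summary were handled. The columns nearly coincide after sorting, so no scaling was added. Normalized values of bright probe sets can compress differences.

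The 64 control probe sets were left out, and the 22519 probe sets with a mean at or above the median of 4.83 went into a two-sided limma fit (version 3.58.1, R 4.3.3; eBayes with trend, no covariate). Benjamini-Hochberg adjustment ran over all of them, with a threshold of 0.05. The fit was tested on simulated data. Precision is limited by the number of arrays (median standard error 0.075 over the 15 probe sets). Exact permutation tests served for control probe sets. All 15 probe sets are named. The rule for the members uses no measured value, but the rule, the lists, the array sets and the settings were set when earlier results of these data were known. Alternatives were other filters, normalization, offset and priors, the replicate number or the array set as a block, null replicates 1 and 2 averaged, and each array left out. Leaving out arrays in the fit with the array set as a block was added after seeing the data. Figures were drawn with matplotlib 3.10.9.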

Additional observations from a re-analysis of the deposited data

How the results depend on the processing

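No member passed the threshold without a block, with no filter, a stricter filter (mean of 6 or more), quantile normalization, an offset of 16, other priors, null replicates 1 and 2 averaged, or any array left out; those counts stayed at 0 of 15. Over all probe sets 864 passed, 119 with null replicates 1 and 2 averaged, and 85 to 592 with an array left out. With the replicate block 857 passed, 0 of them members. With 1 array of each genotype per replicate number, that block cannot change the differences, only their errors. The limma adjusted p of Hk2 went from 0.63 to 0.24. The lowest of a member was 0.082 (limma adjusted p), for Aldoa 1433604_X_AT. Deviations of same-numbered arrays correlated at 0.21, −0.12 and 0.37. Arrays with different numbers were not compared, so these values cannot decide whether the numbers mark pairs. The labels name no pairs, and the main fit took none. With the array set as a block 2466 passed, 1 of them a member. Within that block, 928 passed without null replicate 1, 891 without null replicate 2, 464 without null replicate 3, 123 without wild-type replicate 1, 2909 without wild-type replicate 2 and 2418 without wild-type replicate 3, and the member count was 0 except for 2 (Hk2, −0.35, and Ldha, −0.24) without wild-type replicate 3.

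The differences of Hk2, Aldoa, Pgk1, Pgam1, Eno1 and Ldha kept their sign in each of the 16 alternative fits that give another estimate; 5 others leave the estimate as it is and change only its error or adjustment. The changes of sign were all among values that passed in no fit. Gpi1 1420997_A_AT turned to 0.023 with quantile normalization and ranged from −0.039 to 0.029 with an array left out, and 1450081_X_AT from −0.034 to 0.0097. Slc2a3 1437052_S_AT ranged from −0.066 to 0.0045 and Tpi1 from −0.0056 to 0.13. With the set block, Slc2a3 1421924_AT was 0.059 and Tpi1 −0.029. In that block without null replicate 1 they were 0.039 and −0.032, without null replicate 2 0.045 and −0.033, without null replicate 3 0.18 and −0.0012, without wild-type replicate 2 0.15 and −0.0078, and without wild-type replicate 3 0.0052 and −0.042. Without null replicate 3 it also gave 0.031 for 1437052_S_AT and 0.087 for 1420997_A_AT, and the latter was 0.024 without wild-type replicate 2. Without wild-type replicate 1 it gave −0.14 and −0.16 for Slc2a1 and −0.056 for Tpi1. The cause of these changes was not tested. The planned count over other glycolytic genes was not run, since no table at hand pairs their probe sets with genes.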
